A study of Rattus norvegicus with 4 samples.

Results

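The 33 genes described here encode proteins by which neurons build their cytoskeleton, process their RNA and release and receive transmitter at synapses. They were chosen by name for these roles, not by a threshold on their values, though with earlier results of these data known. They were found through the transcript accessions of the array probes. A probe was found for 31 of the 33, out of 16568 genes with a named probe, and all 31 entered the test along with 11656 tested genes in all, the 31 included. Stmn3, a microtubule-destabilizing stathmin, and Celf4, an RNA-binding protein, were matched to no probe and are not analysed here.

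The arrays measured rat oligodendrocyte precursor cells (OPCs), the glial cells that mature into the myelin-forming cells of the brain. The OPCs came from the cortex of 2-day-old rats, were expanded for 3 days with the growth factors bFGF and PDGF, and then received differentiating medium with thyroid hormone T3. They were transfected by Lipofectamine RNAiMAX with a pool of siRNAs against rat Gpr17 (siGPR17) or a pool with no target (siNEG), each at 50 nM, and RNA was taken 48 h later, at day 2 of maturation. Gpr17 codes for a G protein-coupled receptor that OPCs carry on their way to maturity. Each group had 2 samples, which the submitters call independent, with 1 array for each. No untransfected cells were measured, both groups share the cells, medium and lipid reagent, and a siRNA pool lowers a transcript without removing its gene.

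In neurons, tubulins, neurofilaments and microtubule-binding proteins shape the axon, ELAV-like and RBFOX proteins control which transcript forms are made and kept, and SNARE proteins with synaptotagmin and complexin fuse vesicles with the membrane. Neuroligins on the receiving side bind neurexins on the sending side, and scaffold proteins of the DLG, SHANK and HOMER families hold receptors beneath them. Many of these genes are kept low outside neurons by the repressor REST, which binds a DNA element called RE1, and OPCs are known to carry some synaptic transcripts themselves.

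The promoters of 4 members are shown as examples, and a link between promoter and change was not tested. Dcx and Nlgn3 are the lower and the higher member with the lowest adjusted p in the alternative fits. Ina was lower on both of its probes, and Elavl4 holds a piece of the RE1 element. Each run is the 250 bases before the gene's start, 5′ to 3′ on the gene's strand, from RefSeq on the assembly GRCr8, and capitals mark the matches to a motif described after the sequences.
Dcx, chrX:112304162-112304411, minus strand: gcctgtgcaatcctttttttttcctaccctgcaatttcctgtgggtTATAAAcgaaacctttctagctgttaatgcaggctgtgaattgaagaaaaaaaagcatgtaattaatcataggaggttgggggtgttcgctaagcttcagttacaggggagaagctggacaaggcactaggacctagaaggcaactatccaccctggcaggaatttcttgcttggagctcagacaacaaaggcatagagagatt
Ina, chr1:255837879-255838128, plus strand: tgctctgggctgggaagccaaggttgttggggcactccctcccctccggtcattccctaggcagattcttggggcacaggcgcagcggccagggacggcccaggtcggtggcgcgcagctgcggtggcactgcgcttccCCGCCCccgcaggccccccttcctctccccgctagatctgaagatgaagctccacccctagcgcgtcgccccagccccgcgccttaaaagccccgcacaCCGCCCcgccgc
Elavl4, chr5:130367664-130367913, minus strand: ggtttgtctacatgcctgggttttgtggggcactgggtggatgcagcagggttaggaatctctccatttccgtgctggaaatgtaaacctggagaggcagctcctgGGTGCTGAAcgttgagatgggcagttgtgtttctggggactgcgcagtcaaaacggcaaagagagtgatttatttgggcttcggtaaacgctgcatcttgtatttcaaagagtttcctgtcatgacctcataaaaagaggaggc
Nlgn3, chrX:70469228-70469477, plus strand: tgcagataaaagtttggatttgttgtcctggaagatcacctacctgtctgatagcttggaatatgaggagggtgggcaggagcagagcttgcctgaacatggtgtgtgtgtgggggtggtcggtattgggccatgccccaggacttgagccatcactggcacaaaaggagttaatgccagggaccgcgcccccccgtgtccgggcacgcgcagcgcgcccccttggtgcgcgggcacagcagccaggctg
Several motifs were searched on both strands of this window in 33469 rat promoters, which include 25 of the 33 members. The left arm of RE1, TTCAGCACC, was found in 0.305% of all promoters and in 1 of the 25 members, Elavl4, on the reverse strand with the match beginning 144 bases before the start. The core of the right arm, GGACAG, was found in 18.2% of all promoters and in 0 of the 25. A GC box, GGGCGG, was found in 30.5% of all and in 13 of the 25, among them Ina with both of its matches on the reverse strand. The letters TATAAA were found in 12.9% of all and in 3 of the 25, Dcx, Homer1 and Uchl1, and the match in Dcx begins 204 bases before the start. Nlgn3 held none of these motifs. A match is only a description of these letters, and elements outside the window were not searched.

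Signals are linear values from arrays scaled to their 75th percentile, and a change is the log2 fold change of siGPR17 against siNEG, so that negative values are lower in siGPR17 OPCs. A gene was called where its fold change was at least 1.5 and its limma p, adjusted by Benjamini-Hochberg, was under 0.07, the thresholds of the methods. The 75th percentile lay between 564.9 and 624.1 intensity units, no non-control spot was saturated, and between 26997 and 28244 probes on each array were well above background, the scanner software's own call. Gpr17 itself had a signal of 1107 and 1113 on the siNEG arrays and of 652 and 639 on the siGPR17 arrays, or -0.78 on the log2 scale (standard error 0.085, adjusted p = 0.209). With 2 arrays against 2, the smallest two-sided p of an exact permutation test is 0.333. All arrays shared 1 slide and 1 scan. The siNEG arrays filled one slide column and the siGPR17 arrays a neighbouring one, so that column and treatment cannot be told apart.

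Most of the neuronal genes gave a clear signal in these OPC cultures. Of the 31, 30 were well above background on all 4 arrays, the exception being Dlg4, which codes for the postsynaptic scaffold PSD-95 and was so on 1 of 2 siNEG and on both siGPR17 arrays. In bulk samples, fewer cells of a type and less RNA per cell cannot be told apart. After Gpr17 silencing, 24 of the 31 had a lower and 7 a higher mean signal, where 48% of all tested genes were lower and 52% higher. None of the 31 passed both thresholds, nor did any of all tested genes (0%), and the members' adjusted p lay between 0.209 and 0.981. Changes ran from -0.58 to 0.45 with a median of -0.21, beside 0.01 over all tested genes. With arrays scaled on 8 spike-in probes, which moved the median of all genes to 0.20, 16 of the 31 were lower and their median was -0.02. That scaling shifts every gene by the same amount, so it cannot alter how the members lie relative to other genes.

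On 18 of the 31 genes both siGPR17 arrays lay below both siNEG arrays, where this held for 25.3% of all tested genes. The opposite was seen for 3 of the 31, Elavl3, Nlgn3 and Vamp2, beside 28.1% of all genes, and the groups overlapped for the other 10. In either direction this makes 21 of 31 members, beside 53.4% of all genes. With spike-in scaling these counts were 7 lower and 9 higher. The shares of all genes above do not apply to that scaling, and its own shares are not given. An unadjusted limma p under 0.05 was reached by 11 lower and 1 higher member, beside 8.73% and 7.43% of all tested genes. When the first siNEG array was dropped, the median change was -0.27 for the members and -0.02 for all genes. Dropping the second siNEG array instead gave -0.13 and 0.04. Dropping the first or the second siGPR17 array gave members' medians of -0.21 and -0.22, beside 0.01 for all genes each time. With spike-in scaling, which moved the median of all genes to 0.20, the count of lower members at that p was 0. The share of all genes at that p is not given for this scaling. No member changed by 1.5-fold, beside 2.65% of all genes past this fold in the lower and 2.43% in the higher direction (5.08% in all). A limma fit that let the variance follow the signal and was robust to outlying variances, called trend and robust estimation from here on, gave an adjusted p under 0.07 at any fold to 3 lower members, Dcx, Sv2a and Syt4, and 1 higher, Nlgn3, beside 2.33% and 1.75% of all genes. With normexp background correction it was 1 lower, Dcx, and 1 higher, Nlgn3, beside 1.51% and 1.36%. Neither fit put a member past both thresholds, where 1.58% and 0.961% of all genes were past them.

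**Figure D1:**
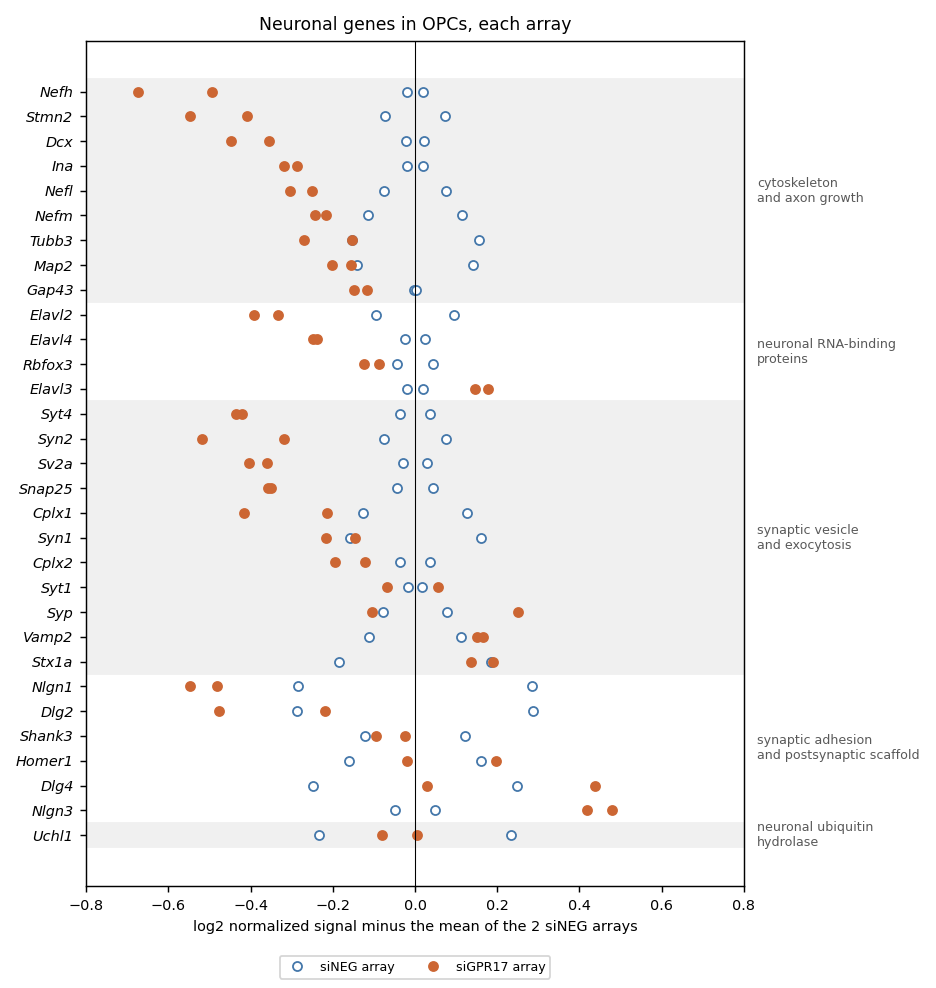
Each row is 1 of the 31 measured neuronal genes, grouped by role, and each point is 1 array: open blue for siNEG and filled orange for siGPR17. The horizontal axis is the log2 normalized signal minus the mean of the 2 siNEG arrays. On 18 genes both orange points lie left of both blue ones at 75th percentile scaling. That count was 7 with spike-in scaling, which moves the siGPR17 values of all genes to the right and for which the share of all genes is not given.

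The cytoskeleton and axon growth genes were the most uniform. All 9 measured members had a lower mean in siGPR17 OPCs, with a median change of -0.28, and 8 of the 9 had groups that did not overlap, beside 25.3% of all tested genes. With spike-in scaling 7 of the 9 were lower, Gap43 and Map2 being the exceptions at 0.06 and 0.02. None was past the thresholds, and 5 had an unadjusted p under 0.05, beside 8.73% of all tested genes.

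Dcx, doublecortin, a microtubule-binding protein of young migrating neurons, had signals of 8509 and 8259 on the siNEG arrays and of 6548 and 6148 on the siGPR17 arrays. Both siGPR17 arrays were lower, with a change of -0.40 (standard error 0.091, adjusted p = 0.217). The adjusted p was 0.0542 with trend and robust estimation and 0.0618 with normexp background correction, and it ranged up to 0.743 over all settings tried. Ina, alpha-internexin, an early neuronal intermediate filament, gave one of the most even pairs, with 30584 and 29757 in siNEG and 24709 and 24173 in siGPR17 OPCs. Its change was -0.30 (standard error 0.086, adjusted p = 0.248), and its second probe gave -0.27.

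Among the neurofilament subunits, Nefh, the heavy chain of large mature axons, was measured at 28.6 and 27.9 in siNEG and at 20.1 and 17.7 in siGPR17 OPCs. Its groups were well apart, and its change of -0.58 (standard error 0.105, adjusted p = 0.209) was the lowest of all 31 and just short of 1.5-fold. Nefl, the light chain, had 59.9 and 66.5 in siNEG against 51.1 and 53.0, a change of -0.28 (standard error 0.101, adjusted p = 0.296). Nefm, the medium chain, changed by -0.23 on its brightest and by -0.19 on its other probe, again without overlap between the groups. Stmn2, a stathmin of growing axons, had 75.4 and 83.5 in siNEG and 54.3 and 59.8 in siGPR17 OPCs, a change of -0.48 (standard error 0.109, adjusted p = 0.217). The size of these changes depended on the background correction, and normexp gave -0.09 for Nefh, -0.06 for Nefl and -0.22 for Stmn2.

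The remaining cytoskeleton members differed less. Gap43, a growth cone protein, had 18210 and 18297 in siNEG and 16843 and 16472 in siGPR17 OPCs, a change of -0.13 (adjusted p = 0.479). Map2, a microtubule-associated protein of dendrites, changed by -0.18 with groups that did not overlap by a narrow margin, 3956 and 4816 against 3919 and 3795. Tubb3, the neuronal beta tubulin, changed by -0.21, with siNEG arrays at 1844 and 2284 and siGPR17 arrays at 1846 and 1702, and was the single member of the group whose arrays overlapped.

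The neuronal RNA-binding proteins were split, with 3 of 4 lower and 1 higher, and with no overlap between the groups for any of them, beside 53.4% of all tested genes. Their median change was -0.17, and with spike-in scaling 2 were lower and 2 higher. Elavl2, an ELAV-like protein that binds AU-rich transcript ends, had 574 and 503 in siNEG and 409 and 426 in siGPR17 OPCs. Its change was -0.36 (standard error 0.109, adjusted p = 0.261), and its second, dimmer probe gave -0.55. Elavl4, whose promoter holds the left arm of RE1, had 1504 and 1453 against 1244 and 1253, a change of -0.24 (standard error 0.086, adjusted p = 0.289). Elavl3 stood on the other side, at 3685 and 3592 in siNEG and 4116 and 4028 in siGPR17 OPCs, a change of 0.16 (adjusted p = 0.407) that was 0.02 with overlapping arrays on its second probe. Rbfox3, the splicing factor known as the NeuN antigen, changed by -0.11 (adjusted p = 0.587) and by 0.09 with spike-in scaling.

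Of the 11 synaptic vesicle and exocytosis genes, 8 were lower and 3 higher, with a median of -0.18, and with spike-in scaling 5 were lower and 6 higher. Groups did not overlap for 6 lower and 1 higher of the 11, beside 25.3% and 28.1% of all tested genes, and 4 of the lower ones had an unadjusted p under 0.05, beside 8.73%. Syt4, an unusual synaptotagmin that does not act as a classical calcium sensor, had 439 and 417 in siNEG and 320 and 316 in siGPR17 OPCs. This is a change of -0.43 (standard error 0.088, adjusted p = 0.211), and the other Syt4 probe gave -0.37. With trend and robust estimation the adjusted p of Syt4 was 0.0645, and it reached 0.701 over the settings tried. Sv2a, a vesicle glycoprotein, had 1247 and 1297 in siNEG and 991 and 961 in siGPR17 OPCs, a change of -0.38 (standard error 0.088, adjusted p = 0.218). Its adjusted p was 0.0573 with trend and robust estimation and at most 0.741 over the settings tried.

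Snap25, the SNARE protein of the presynaptic membrane, had 352 and 375 in siNEG and the nearly equal pair 285 and 284 in siGPR17 OPCs. Its change was -0.35 (standard error 0.090, adjusted p = 0.233). Its partners in vesicle fusion differed from it in direction: Vamp2, the SNARE of the vesicle, changed by 0.16 without overlap (adjusted p = 0.523), and Stx1a, syntaxin on the target membrane, by 0.16 with overlapping arrays (adjusted p = 0.622). The difference between these genes was not tested, since each is measured by its own probe. Vamp2 had 42363 and 49424 in siNEG and 50792 and 51281 in siGPR17 OPCs. A much dimmer Vamp2 probe, well above background on 1 array of each group, gave -0.59 with a standard error of 0.604.

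Syn2, a synapsin that tethers vesicles, had 91.0 and 101 in siNEG and 77.0 and 67.0 in siGPR17 OPCs, a change of -0.42 (standard error 0.121, adjusted p = 0.254). Its other probe, on another Syn2 transcript, gave -0.10 with overlapping arrays. Syn1 changed by -0.18 with overlap, and by -0.33 without overlap on its other probe. The complexins, which clamp and trigger fusion, had lower signals without overlap. Cplx1 changed by -0.31, from 154 and 184 to 126 and 145, and Cplx2 by -0.16, from 1316 and 1384 to 1240 and 1180, and with spike-in scaling Cplx2 was at 0.04. The classical vesicle markers showed no separation on their brightest probes, with Syp, synaptophysin, at 0.07 and Syt1, the fast calcium sensor, at -0.01. Arrays overlapped in both cases, but a dimmer Syt1 probe was higher without overlap, at 0.26.

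The 6 synaptic adhesion and postsynaptic scaffold genes had no common direction, with 3 lower, 3 higher and a median of 0.01. Nlgn3, a neuroligin also present in glia, had 651 and 697 in siNEG and 939 and 900 in siGPR17 OPCs, a change of 0.45 (standard error 0.093, adjusted p = 0.213), the highest of all 31. Its adjusted p was 0.0467 with trend and robust estimation and 0.0576 with normexp, within a range up to 0.712. This probe lies on a predicted transcript of the gene, and the probe on the curated transcript gave -0.04 (standard error 0.167), with 139 and 175 against 166 and 139. Nlgn1 went the other way on both arrays, at 166 and 112 in siNEG and 97.4 and 93.0 in siGPR17 OPCs, a change of -0.51 (standard error 0.216, adjusted p = 0.334) that became -0.23 when siNEG replicate 1 was left out and -0.80 when siNEG replicate 2 was.

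The scaffold genes overlapped between the groups. Dlg2, coding for PSD-93, changed by -0.35 on its brightest probe with a siNEG pair as wide as 77.8 and 52.3, while 2 dimmer probes gave -0.53 each without overlap. Shank3 was at -0.06, Homer1 at 0.09 and Dlg4 at 0.23. Uchl1, an abundant neuronal ubiquitin hydrolase, was at -0.04 with siNEG arrays of 13734 and 18974 on either side of both siGPR17 arrays at 16197 and 15261.

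Counting every probe instead of 1 per gene, 44 of the 45 probes of the members were tested, of which 34 were lower and 10 higher. Several probes were tested for 12 genes, and they pointed one way for 8 of them. They differed in sign for Nlgn3, Shank3, Syt1 and Vamp2. For Syt1 the brightest probe gave -0.01 and the other 0.26, without overlap on the latter. Probes of one gene share their RNA samples and are not replicates.

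**Figure D2:**
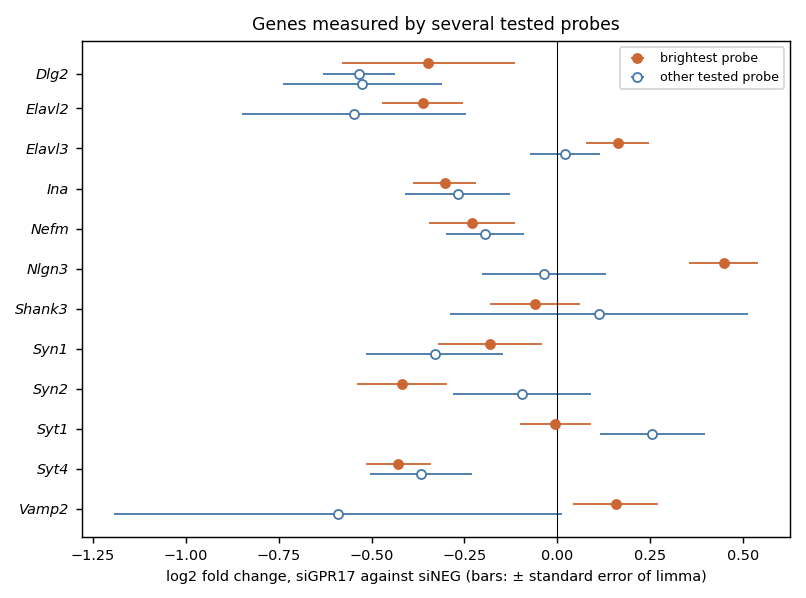
Log2 fold change of siGPR17 against siNEG for the 12 members with several tested probes, with bars of ± 1 standard error from limma; filled points are the brightest probe of a gene and open points its other tested probes. The Dlg2, Elavl2, Ina, Nefm, Syn1, Syn2 and Syt4 probes all lie left of 0 at 75th percentile scaling, and the Nlgn3 and Vamp2 probes lie on opposite sides.

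Other genes of the same processes were taken from 5 lists with 106 genes, of which 87 were tested. None passed both thresholds with limma (0%), and 60 were lower and 27 higher, with a median of -0.11, whereas 30 were lower with spike-in scaling. Groups did not overlap for 38 lower and 11 higher of the 87 genes, beside 25.3% and 28.1% of all tested genes, and 12 lower and 1 higher had an unadjusted p under 0.05, beside 8.73% and 7.43%. The median with that scaling was 0.09, against 0.20 for all genes.

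By list, 13 of 20 other microtubule and axon growth genes were lower (median -0.05), or 4 with spike-in scaling. Crmp1, a collapsin response mediator of growth cones, had 6685 and 8371 in siNEG and 4756 and 4663 in siGPR17 OPCs. Its change of -0.67 (adjusted p = 0.214) exceeded 1.5-fold, and its adjusted p was 0.0378 with trend and robust estimation and 0.0468 with normexp, past both thresholds in each, within a range up to 0.665 over the settings tried. Ank3, the ankyrin of the axon initial segment, was higher on both arrays by 0.34 (adjusted p = 0.265), and Tubb4a, a beta tubulin, lower by a change of -0.29 (adjusted p = 0.440). Of the other neuronal RNA-binding proteins 11 of 13 were lower (median -0.17), or 5 with spike-in scaling, with Celf5 at -0.33, Celf6 at -0.33 and Rbfox1 at -0.31 and adjusted p of 0.287, 0.332 and 0.317. Celf6 was well above background on 1 of 2 siGPR17 arrays and was at 0.03 with normexp, and Celf5 was at -0.22 there.

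Among other vesicle and exocytosis genes 18 of 29 were lower (median -0.11), or 11 with spike-in scaling. Bsn, bassoon, an organizer of the active zone, had 765 and 1029 in siNEG and 567 and 548 in siGPR17 OPCs, a change of -0.67 (adjusted p = 0.234) that passed both thresholds with trend and robust estimation at an adjusted p of 0.0590, which reached up to 0.682 at other settings. Doc2a, a calcium sensor of release, was not well above background on either siGPR17 array and was 1.64-fold lower by its own measured signal (adjusted p = 0.213). It entered the test only through its siNEG arrays, which favours a lower value. Synpr, synaptoporin, changed by -0.55 (adjusted p = 0.215). With normexp these values were -0.06 for Doc2a and -0.18 for Synpr. The other adhesion and scaffold genes were lower in 16 of 21 cases (median -0.19), or 10 with spike-in scaling, with Cadm3, a cell adhesion molecule, at -0.60 (adjusted p = 0.353), Nrxn2 at -0.57 and Nrxn3 at -0.37. The change of Cadm3 was -0.23 without siGPR17 replicate 2 and -0.97 without siGPR17 replicate 1. Of the 4 tested genes of the REST repressor complex, Rcor2 at 0.10 and Hdac1 at 0.07 were higher without overlap, beside 28.1% of all tested genes. Rest itself was at -0.07 (standard error 0.114) with overlapping arrays.

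**Figure D3:**
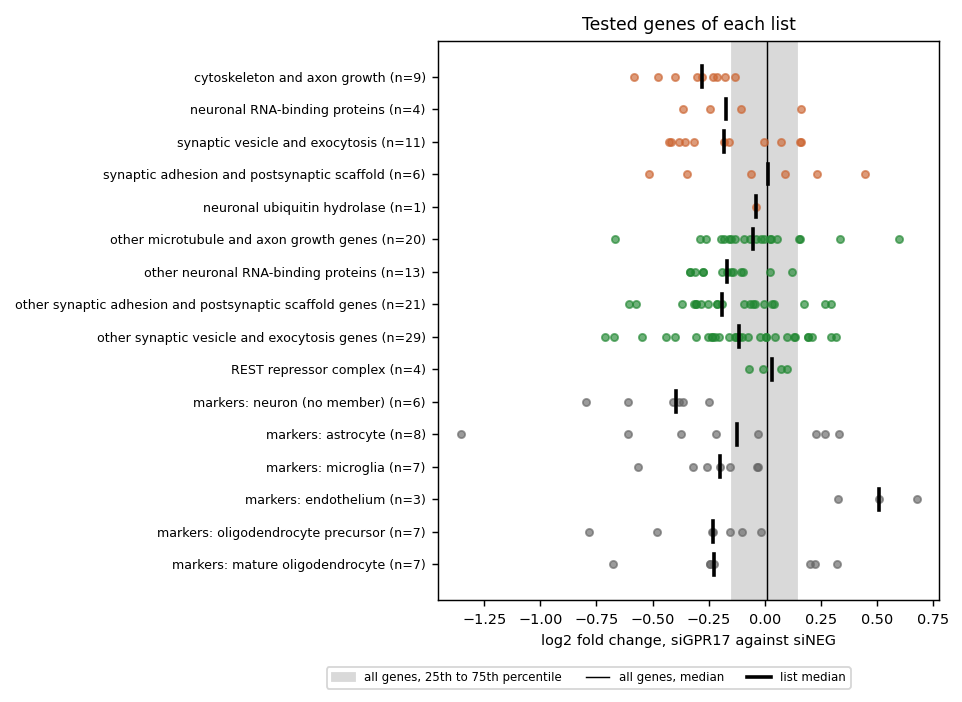
Log2 fold change of siGPR17 against siNEG, 1 point per tested gene, for the 5 groups of members (orange), the lists of other genes of the same processes (green) and the cell type markers (grey), with a thick bar at each list's median. The grey band spans the 25th to 75th percentile of all tested genes and the thin line their median of 0.01; the 9 cytoskeleton members lie left of 0, as do the 6 tested neuronal markers, at 75th percentile scaling, whereas 7 of the 9 and all 6 did so with spike-in scaling.

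Neurexins and neuroligins were set side by side because they bind each other across the synapse. Nrxn2 and Nrxn3 were lower on both siGPR17 arrays, and their mean change stayed below 0 with spike-in scaling. Nrxn2 had 23921 and 29131 in siNEG and 18283 and 17225 in siGPR17 OPCs (-0.57, adjusted p = 0.218), and its other probes gave -0.57 and -0.76. Nrxn3 had 832 and 858 against 646 and 661 (-0.37, adjusted p = 0.218), with -0.54 and -0.21 on further probes and 0.32 with overlap on the dimmest. With trend and robust estimation the adjusted p was 0.0491 for Nrxn2 and 0.0659 for Nrxn3, and over the settings tried it reached 0.676 and 0.726. The neuroligins did not share a direction, since Nlgn1 was lower, Nlgn3 higher on one of its probes, and Nlgn2, the neuroligin of inhibitory synapses, was at 938 and 816 in siNEG and 1098 and 1051 in siGPR17 OPCs (0.30, adjusted p = 0.306) but at -0.10 with overlap on its other probe.

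**Figure D4:**
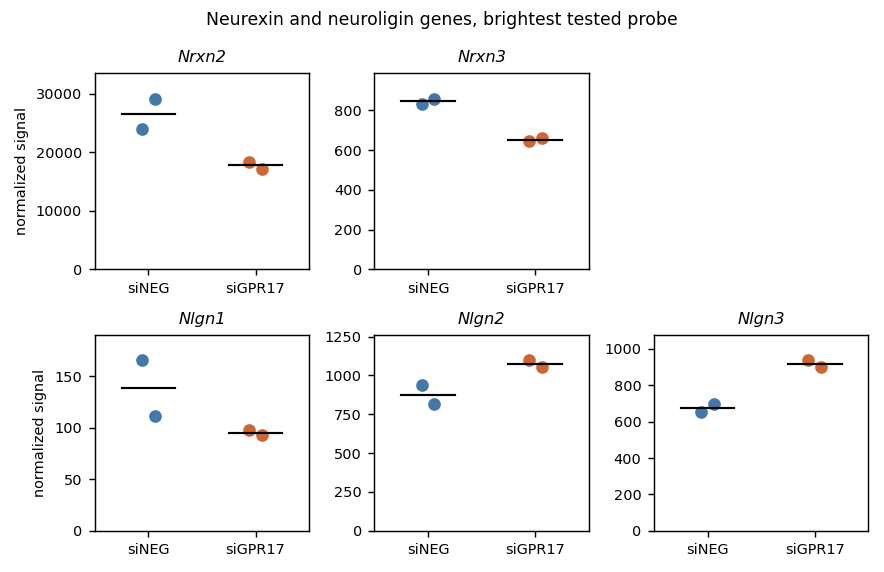
Normalized signal on a linear axis starting at 0 for Nrxn2 and Nrxn3 (upper row) and for Nlgn1, Nlgn2 and Nlgn3 (lower row), brightest tested probe, with 1 point per array and a line at the mean of the 2 arrays of each group. The siGPR17 points of Nrxn2, Nrxn3 and Nlgn1 lie below both siNEG points, and those of Nlgn2 and Nlgn3 above them, at 75th percentile scaling.

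Other markers of neurons had lower signals where they could be measured, though none passed the thresholds. Of 13 such genes, 6 were tested, and all 6 were lower without overlap, beside 25.3% of all tested genes. Their median was -0.40, which was -0.20 with spike-in scaling and -0.19 with normexp. They were Gad1 at -0.25, Reln at -0.37, Myt1l at -0.38, Bcl11b at -0.41, Neurod2 at -0.61 and Gad2, which was not well above background on either siGPR17 array and at least 1.54-fold lower (adjusted p = 0.209). Gad2 thus entered the test only through its siNEG arrays, which favours a lower value. A filter on all 4 arrays kept 5 of the 6, all lower, with a median of -0.38. With normexp Gad2 was at -0.09, Myt1l at -0.06 and Neurod2 at -0.24. The bound sets the brighter group's mean against the dimmest signal still called above background on a dim array, or against the probe's own signal where that is higher. The remaining 7 were not well above background on any array, among them Slc17a6, Slc17a7 and Slc32a1, the vesicular transporters that define glutamatergic and inhibitory neurons. The summed signal of the 13 was 1805 and 1848 in siNEG and 1414 and 1412 in siGPR17 OPCs. Most of that sum is the probe of Reln, at 1247 and 1328 in siNEG and 991 and 1005 in siGPR17 OPCs. The part of neurons in the cultures in the lower signals of the members was not tested.

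Markers of the cultured lineage were present throughout. All 7 OPC markers were well above background on all arrays and lower in siGPR17 OPCs (4 of 7 with spike-in scaling). The 7 include Gpr17 itself at -0.78. As the target of the siRNA pool it was set to fall, and it counts in each number given for this list. Of the 7, 5 were lower without overlap, beside 25.3% of all tested genes. Their median was -0.23, with summed signals of 212243 and 252368 in siNEG and 205734 and 207917 in siGPR17 OPCs. Of 7 markers of mature oligodendrocytes, all detected on all arrays, 3 were higher and 4 lower, from Mbp at 0.32 to Mog at -0.67 (adjusted p = 0.210). Mog passed both thresholds with trend and robust estimation (adjusted p = 0.0387) and with normexp (adjusted p = 0.0461), where 1.58% and 0.961% of all genes did. None of the 7 had overlapping groups, and 53.4% of all tested genes had none either. Their summed signal was 300854 and 337921 in siNEG and 355447 and 369827 in siGPR17 OPCs. Most of it is the probe of Mbp, at 197178 and 227699 in siNEG and 256521 and 272873 in siGPR17 OPCs. Of 9 astrocyte markers 8 were tested, of which 5 were lower and 3 higher (4 and 4 with spike-in scaling). The lower ones ran from Aqp4 at -1.35 (adjusted p = 0.209) and Gfap at -0.61 to Aldoc at -0.03. The higher ones were Fgfr3 at 0.23 without overlap, and Aldh1l1 at 0.27 and Gja1 at 0.33 with overlap. Aqp4 passed both thresholds with trend and robust estimation (adjusted p = 0.0203) and with normexp (adjusted p = 0.0173). The summed signal of the 9 was 116316 and 131068 in siNEG and 118849 and 120074 in siGPR17 OPCs. Most of that sum is the probe of Aldoc, at 107483 and 121582 in siNEG and 111314 and 112583 in siGPR17 OPCs. The 7 tested microglia markers of 9 were all lower (4 with spike-in scaling), 2 of them without overlap, beside 25.3% of all tested genes. Without siNEG replicate 1, however, 2 were lower and 5 higher, which moved the median from -0.20 to 0.12. Their sums were 3400 and 1853 against 1974 and 2470, mostly from the probe of Cx3cr1 (2512 and 1241 against 1338 and 1884). The 3 tested endothelial markers of 6 were all higher. The sums of the 6 were 337 and 354 against 508 and 507, mostly from the probe of Kdr (202 and 233 against 354 and 340). Cldn5 and Pecam1 were not well above background on any array. The part of these cells in the members' values was not tested.

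At 75th percentile scaling the median of the members minus that of all genes was -0.22. Median and spike-in scaling, trend and robust estimation, the methods' t-test and a replicate block leave this difference as it is by construction. At the settings that can alter it (normexp, quantile normalization, other filters, the mean over probes and leaving out 1 array) it ran from -0.25 without siNEG replicate 1 to -0.16 without siNEG replicate 2.

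**Figure D5:**
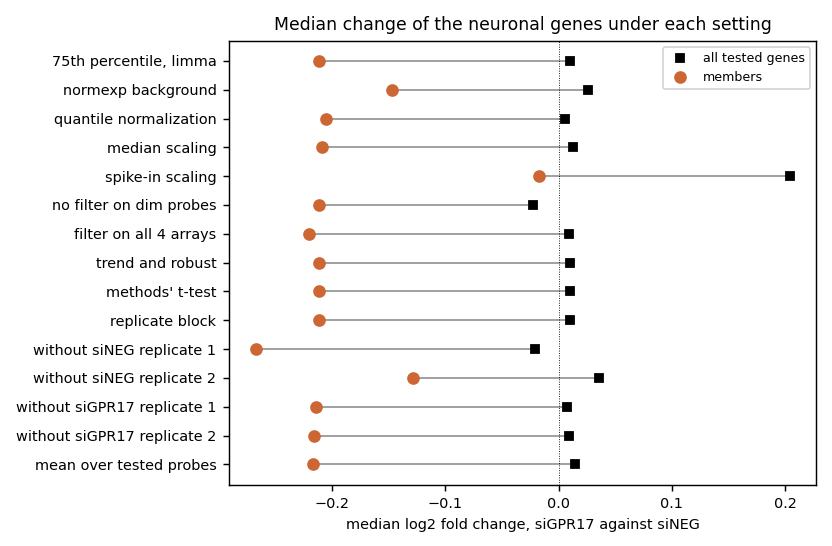
Median log2 fold change of siGPR17 against siNEG over the tested members (orange circles) and over all tested genes (black squares) at each processing setting, with a grey line between them. Spike-in scaling shifts both medians to the right, to -0.02 and 0.20, without altering the gap between them, which is -0.25 without siNEG replicate 1 and -0.16 without siNEG replicate 2.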

How the data were processed

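Gene expression was measured in 4 rat OPC samples, 2 siNEG and 2 siGPR17, on one-color Agilent arrays. The authors deposited the intensity of each spot as Agilent Feature Extraction 10.7.3.1 gave it, corrected for background and not normalized between arrays. Groups were taken from the sample labels.

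Control spots and flagged outliers were left out, and spots of a probe were averaged. The log2 intensity minus the array's 75th percentile was fitted with limma 3.58.1 (lmFit, eBayes) under R 4.3.3, two-sided and without a block. The test covered 28016 of 45565 probes, those well above background on at least 2 of 4 arrays, and p-values were adjusted over all of them by Benjamini-Hochberg. A gene is represented by its brightest tested probe. Probes were named through RefSeq accessions matched to a gene table of GRCr8, which gave a symbol to 21109 probes. The methods give thresholds for the arrays and name no test there, and the unpaired t-test of their general section, here the methods' t-test, was one of the alternatives.

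The members and lists were chosen with earlier results of these data known. Values on every array are given for members with an unadjusted p under 0.05 or a fold change of 1.5, and for others where their spread bears on the result. Of each other list up to 3 genes with the largest change and no overlap are named. Nrxn2, Nrxn3 and Nlgn2 are shown as partners of the neuroligins, a choice made after their values had been seen. The code was tested on simulated data. The settings tried were normexp on spot medians (offset 50), quantile, median and spike-in scaling, no filter, a filter on all 4 arrays, trend and robust estimation, the methods' t-test, a replicate block, leaving out each array, and the mean over the tested probes of a gene. Replicate arrays differed with a SD of 0.37 in siNEG and 0.29 in siGPR17 OPCs on the log2 scale over tested probes, and the number of arrays limits the precision. Metabolomic, lipidomic and PCR data were not analysed here, and the results of 2 genes are not reported by themselves.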

Additional observations from a re-analysis of the deposited data

How the results depend on the processing

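No member passed both thresholds at any setting, the methods' t-test included. With normexp the members' median was -0.15 and with spike-in scaling -0.017, and leaving out 1 array gave medians from -0.27 to -0.13. Spike-in scaling left 7 lower and 9 higher members without overlap, while it moved the median of all genes to 0.20. For that scaling the share of all genes without overlap is not given. Of the 87 other tested genes of the same processes, 1 passed both thresholds with normexp and 2 with trend and robust estimation. Beside them stand 0.961% and 1.58% of all tested genes. Gpr17 passed in both fits (-0.66, adjusted p = 0.0220, and -0.78, adjusted p = 0.0152). Of 433 values of single members, 24 in 13 genes changed sign. With spike-in scaling these were Cplx2 at 0.036, Gap43 at 0.062, Map2 at 0.016, Rbfox3 at 0.089, Shank3 at 0.13, Syn1 at 0.013, Syt1 at 0.19 and Uchl1 at 0.16. Syt1 was at 0.0082 with normexp and at 0.0094 with quantile normalization. The mean over probes gave 0.026 for Shank3, 0.12 for Syt1 and -0.22 for Vamp2. With an array left out, values ran from -0.014 to 0.48 for Dlg4, -0.072 to 0.25 for Homer1, -0.18 to 0.062 for Shank3, -0.022 to 0.35 for Stx1a, -0.10 to 0.25 for Syp, -0.069 to 0.057 for Syt1 and -0.27 to 0.19 for Uchl1. With a replicate block, 0 members passed, their median was -0.21, 6 lower and 1 higher had an unadjusted p under 0.05, and the adjusted p of Gpr17 was 0.390. For the blocked fit the share of all genes at that p is not given, so these counts cannot be set against one. Same-numbered samples did not deviate together (correlation -0.07), so the numbers are not taken to pair them. The cause of these shifts was not tested. Dim probes such as those of Nefh, Dlg4 and Doc2a lie near background, which limits their fold changes.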
